A study of Mus musculus with 167 samples.

Results

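Acta1, Ttn, Tcap, Mylpf, Casq1 and Lmod2 are 6 genes of striated muscle, described here in messenger RNA from mouse liver. They were chosen by their measured levels in earlier work on these data, in which they were high in livers of 10-month-old Q175 mice, so their levels in that group, and any comparison or slope that includes it, are a description and no test of them. They are 6 of the 39179 gene IDs in the table of counts, and all 6 were found there by symbol. All libraries came from polyA RNA of flash-frozen livers of C57BL/6 mice. The knock-in mice carried 1 Htt allele with a CAG repeat, named Q175, Q140, Q111, Q92, Q80 or Q20 by its length, and all of them were heterozygous. Wild-type (WT) mice, described as littermates and housed with Q20 mice, had no knock-in allele. Each of these 7 genotypes was sampled at 2, 6 and 10 months of age, which gave 21 groups. A group was made up of 8 livers, 4 of each sex, with exceptions in Q80 alone, where the labels give 3 females and 5 males at 2 months and 4 females and 3 males at 10 months. Nothing in the labels says that animals were pooled.

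The sarcomere is the contractile unit of striated muscle, in which thick filaments of myosin pull on thin filaments of actin. Acta1 encodes the actin of the thin filament in skeletal muscle, and Lmod2, leiomodin, nucleates actin filaments and sets their length, with its best known role in the heart. Mylpf encodes the regulatory light chain of myosin in fast skeletal fibres. Ttn encodes titin, the giant elastic protein that spans from the Z-disc to the M-band, and Tcap encodes telethonin, which caps titin at the Z-disc. Casq1 encodes calsequestrin of the sarcoplasmic reticulum, the calcium store that is opened to start contraction. Hepatocytes, the main cells of the liver, build no sarcomeres.

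In GENCODE M21 (GRCm38), used for positions, Acta1 (ENSMUSG00000031972) lies on the minus strand at chr8:123891769-123894751 and Ttn (ENSMUSG00000051747) on the minus strand at chr2:76703980-76982547. Tcap (ENSMUSG00000007877) lies on the plus strand at chr11:98383811-98384953 and Mylpf (ENSMUSG00000030672) on the plus strand at chr7:127208890-127214298. Casq1 (ENSMUSG00000007122) lies on the minus strand at chr1:172209894-172219868 and Lmod2 (ENSMUSG00000029683) on the plus strand at chr6:24597762-24605414. Ttn and Casq1 overlap antisense genes (Gm13938 and Gm17224) and Acta1 overlaps Gm20388 on the plus strand. The sources used here do not say whether the counting used strand, so reads of these overlapping pairs cannot be told apart.

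Upstream sequences are shown for 3 members that stand for the patterns described below: Acta1, which was at 0 in most libraries, Mylpf, which was counted in every library, and Lmod2, which differed between the sexes. RefSeq (GRCm38.p6) gave the 250 bases before the start site for 5 of the 6 members, at chr8:123894776-123895025 (minus strand) for Acta1, chr7:127211358-127211607 (plus strand) for Mylpf and chr6:24597521-24597770 (plus strand) for Lmod2. Capitals mark E boxes (CANNTG, the letters bound by MyoD and related factors) and the CArG box (bound by serum response factor), both searched on both strands.
Acta1: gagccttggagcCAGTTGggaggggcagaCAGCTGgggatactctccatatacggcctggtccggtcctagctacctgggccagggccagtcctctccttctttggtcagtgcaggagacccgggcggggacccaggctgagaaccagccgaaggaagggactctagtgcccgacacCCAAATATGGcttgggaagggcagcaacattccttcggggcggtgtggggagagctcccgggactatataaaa
Mylpf: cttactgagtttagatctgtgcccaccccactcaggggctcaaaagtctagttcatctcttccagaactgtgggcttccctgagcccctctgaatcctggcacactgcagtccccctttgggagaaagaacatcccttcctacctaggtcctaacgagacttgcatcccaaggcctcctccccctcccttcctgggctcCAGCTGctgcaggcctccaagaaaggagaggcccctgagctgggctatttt
Lmod2: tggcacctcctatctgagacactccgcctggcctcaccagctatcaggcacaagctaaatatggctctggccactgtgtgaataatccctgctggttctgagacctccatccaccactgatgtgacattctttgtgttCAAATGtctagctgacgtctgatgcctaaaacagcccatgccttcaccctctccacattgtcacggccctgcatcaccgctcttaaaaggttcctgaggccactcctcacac
Acta1 held 2 E boxes, which start at -238 and -221 from the start site, a CArG box at -73, and the letters TATAAA, searched on the gene's own strand. Mylpf held 1 E box at -51 and Lmod2 held 1 at -112, with no CArG box in either window. Casq1 held 2 E boxes, and Ttn held 1 E box and 1 MEF2 site, a motif searched on both strands. No E box overlapped a CArG box in these windows. An E box was in 66.2% of the 32851 RefSeq windows of this length, a CArG box in 1.47%, a MEF2 site in 2.92% and TATAAA in 7.59%. These matches describe letters in the windows and no binding was measured. For Mylpf and Lmod2 the RefSeq start lies inside the span that GENCODE gives to the gene.

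The depth of a library was between 32025192 and 57151689 counts (median 38663456). At that depth 3 counts, the limit that a count of 0 allows, were worth 0.0490 to 0.108 CPM, the count scaled to the size of the library. The hepatocyte markers Alb, Apoa1, Ttr, Serpina1c, Fgb and Cps1 summed to between 65258 and 142309 CPM in the libraries other than the 3 described next. Levels of 1 gene across libraries are given in CPM on library sizes normalized by TMM, and levels between genes in FPKM, the authors' value per length of transcript.

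A library was taken to carry muscle RNA when Acta1 exceeded 1 CPM, a threshold kept from earlier work. In the whole series 2 libraries passed, both from 10-month-old Q175 females, F3 and F4. F3 had 270.2 CPM of Acta1 (12141 counts) and F4 had 7.88 CPM (350 counts). Just below the threshold was the 6-month-old WT female F2, with 0.932 CPM (43 counts). The next library after that, a 10-month-old Q111 female, had 0.0788 CPM, and Acta1 had no count at all in 136 of the other 164 libraries. The 6 genes together made up 0.0619% of the counts in F3 (95% Wilson interval 0.0611 to 0.0626%), 0.00197% in F4 (0.00184 to 0.00211%) and 2.16e-04% in the WT female F2 (1.78e-04 to 2.62e-04%). These intervals cover counting error only. In bulk tissue, fewer cells of a type and less RNA per cell cannot be told apart, and a level here is a share of all RNA in the sample.

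**Figure D1:**
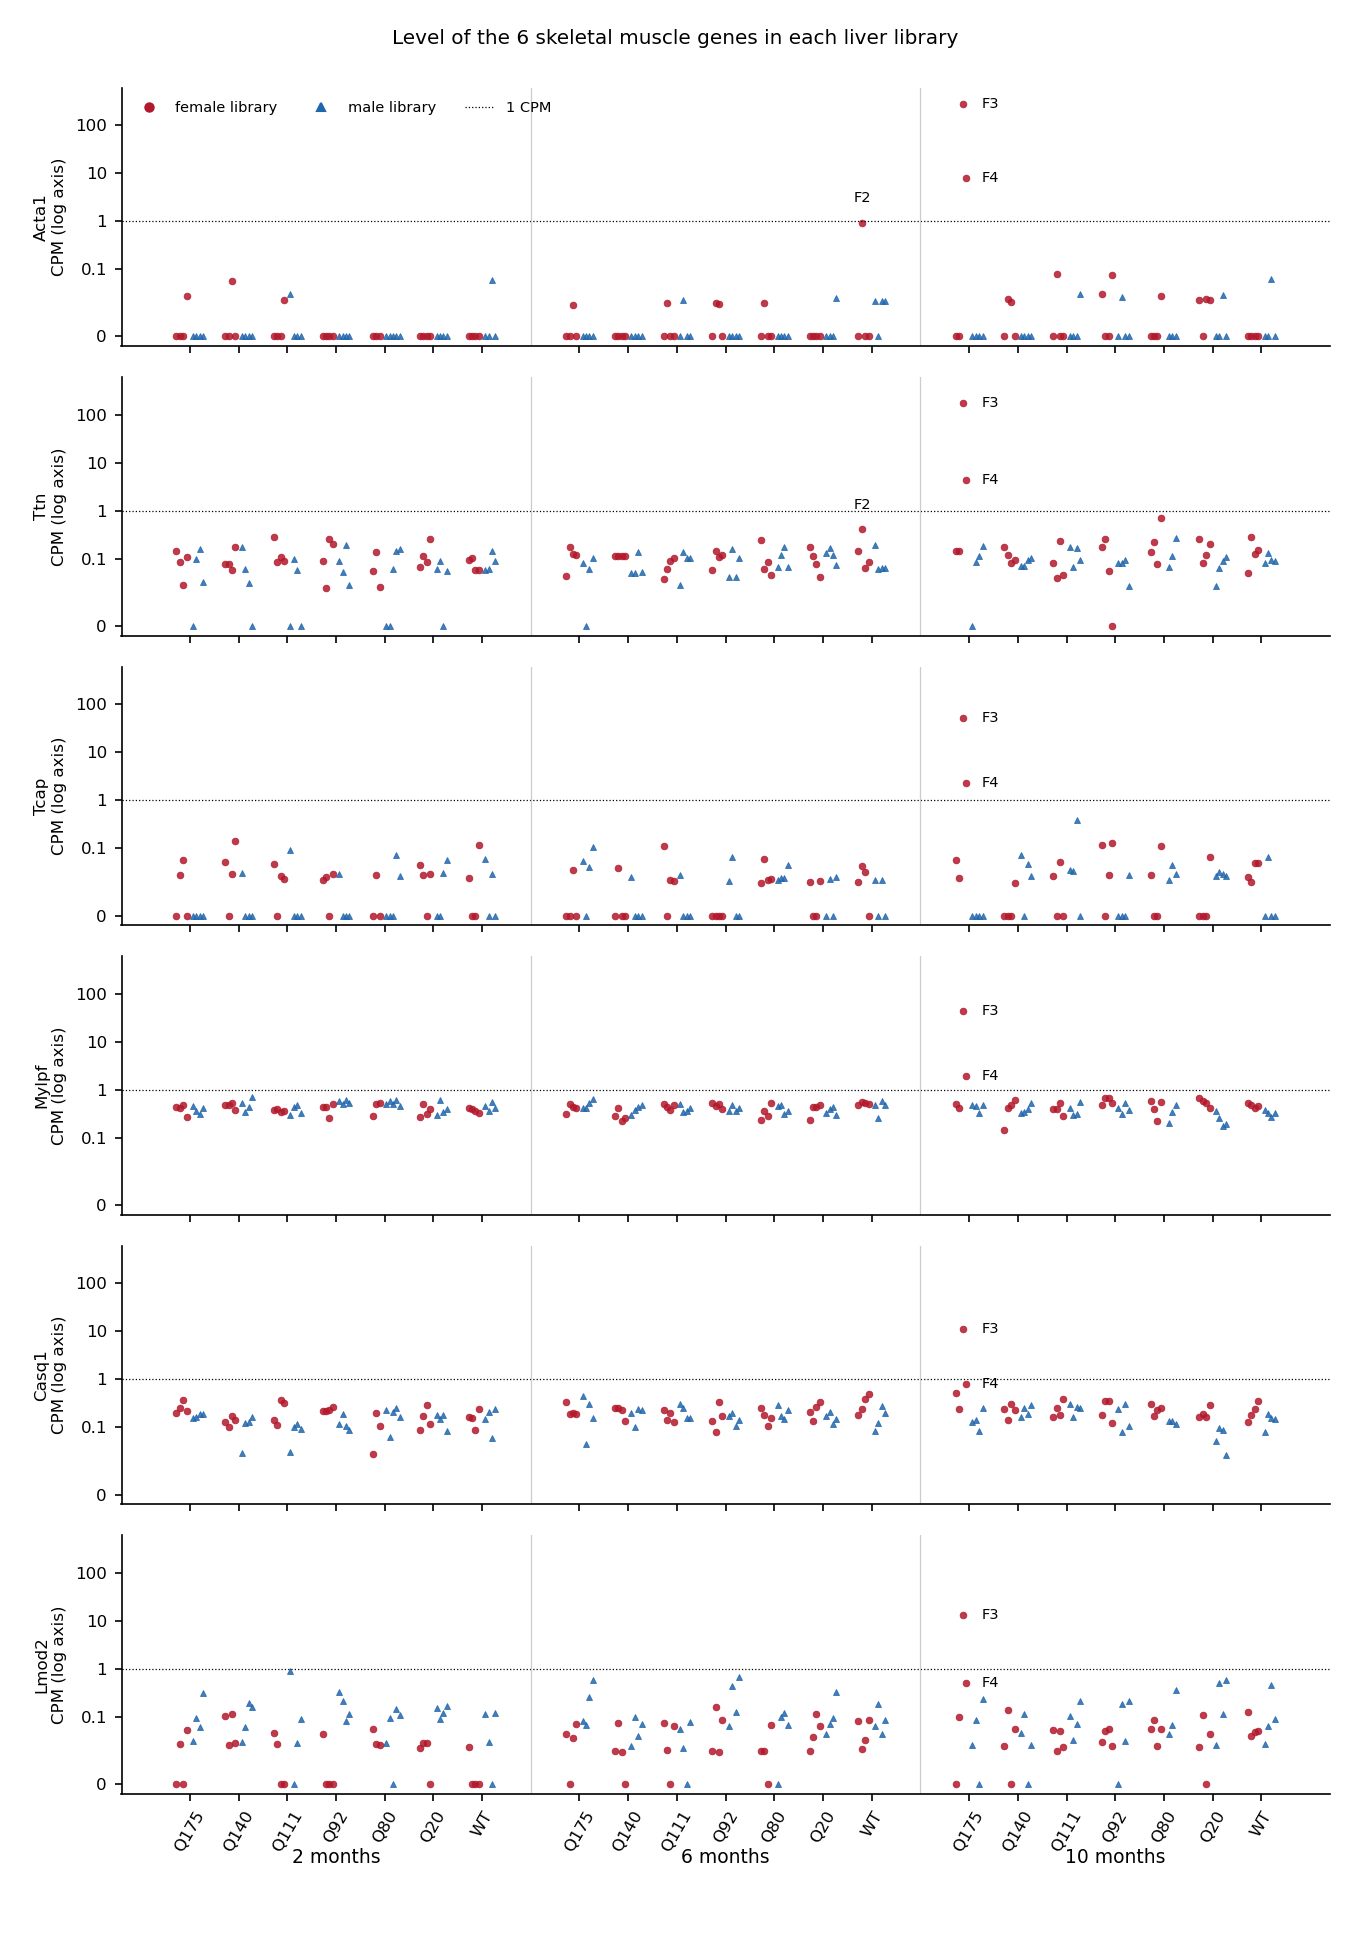
Level of each of the 6 genes in CPM (log axis, with 0 placed at its foot) in every library, by age and genotype, with the 3 libraries of highest Acta1 marked. The Q175 female F3 is highest for all 6 genes, with 270.2 CPM of Acta1, while Mylpf and Casq1 are counted in every library.

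The thin filament genes are given first. In 10-month-old Q175 mice Acta1 read 0, 0, 270.2 and 7.88 CPM in the females F1 to F4 and 0 CPM in all 4 males. In 10-month-old Q20 mice it read 0.0233, 0, 0.0235 and 0.0225 CPM in the females and 0, 0, 0.0295 and 0 CPM in the males, values of at most 1 count. Acta1 was thus above the 3-count limit in only 2 of these 16 livers. Lmod2 read 0, 0.0981, 13.4 and 0.518 CPM in the Q175 females and 0.0259, 0.0875, 0 and 0.232 CPM in the Q175 males. In Q20 it read 0.0233, 0.109, 0 and 0.0450 CPM in the females and 0.0266, 0.513, 0.118 and 0.599 CPM in the males. For Lmod2 the Q175 female F4 therefore lay above all 4 Q20 females but inside the range of the Q20 males. F3 alone stood above the Q20 livers of both sexes.

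The myosin light chain Mylpf read 0.520, 0.417, 44.4 and 1.98 CPM in the Q175 females of 10 months and 0.491, 0.467, 0.336 and 0.487 CPM in the Q175 males. The Q20 females read 0.676, 0.598, 0.541 and 0.428 CPM and the Q20 males 0.372, 0.257, 0.177 and 0.191 CPM. Outside F3 and F4, the 6 Q175 livers fell within the range of the 8 Q20 livers for this gene. Ttn read 0.144, 0.147, 172 and 4.37 CPM in the Q175 females and 0, 0.0875, 0.112 and 0.186 CPM in the Q175 males, against 0.257, 0.0816, 0.118 and 0.203 CPM in the Q20 females and 0.0266, 0.0641, 0.0886 and 0.109 CPM in the Q20 males. Its partner Tcap read 0.0577, 0.0245, 51.0 and 2.28 CPM in the Q175 females and 0 CPM in all 4 Q175 males, against 0, 0, 0 and 0.0675 CPM in the Q20 females and 0.0266, 0.0321, 0.0295 and 0.0272 CPM in the Q20 males. For titin and telethonin, as for Acta1, F3 and F4 stood above all of the other livers of these groups.

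Casq1 behaved a little differently among the Q175 livers. It read 0.520, 0.245, 11.3 and 0.811 CPM in the Q175 females and 0.129, 0.146, 0.0841 and 0.255 CPM in the Q175 males. The Q20 females read 0.163, 0.190, 0.165 and 0.293 CPM and the Q20 males 0.0532, 0.0962, 0.0886 and 0.0272 CPM. The Q175 female F1, with Acta1 at 0, had the highest Casq1 of the 164 libraries outside the top 3. The same library was also highest of the 164 for Ryr1 (0.289 CPM) and Scn4a (0.202 CPM), which encode the calcium release channel and the sodium channel of skeletal muscle and were named after their values were seen.

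The labels carry a library number, and F3 and F4 have consecutive numbers, 300219 and 300218. The library before them, the 10-month-old Q20 female F3 (300217), had 0.0235 CPM of Acta1, and the library after them, the 10-month-old WT male M3 (300220), had 0.0619 CPM. The names of all 4 Q175 females of 10 months share a code, and Acta1 was 0 in F1 and F2. What the number and the code stand for is not given in the sources used here.

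Between F3 and F4 the 6 genes did not scale by 1 factor. The level in F3 was 34.3 times that in F4 for Acta1 (exact 95% interval 30.8 to 38.2) and 39.3 times for Ttn (34.1 to 45.6). It was 22.4 times for Tcap (18.4 to 27.7), 22.4 times for Mylpf (18.1 to 28.1), 25.9 times for Lmod2 (17.1 to 41.1) and 13.9 times for Casq1 (9.90 to 20.1). The intervals of Acta1 and Ttn lie above those of Tcap, Mylpf and Casq1. They cover counting error between 2 libraries only and do not compare conditions. The liver's own level, most visible for Mylpf and Casq1, is included in both libraries. After subtraction of the median of the other libraries, 46 genes of 5 fixed lists of skeletal muscle genes could be compared, with a median ratio of 29.7, quartiles of 26.3 and 34.2, and a range of 11.3 to 84.4. These were the genes with more than 3 counts in F4 and a level there above all of the other libraries, which leaves out Lmod2. Their ratios included 34.3 for Acta1, 40.1 for Ttn, 22.6 for Tcap, 28.3 for Mylpf and 17.5 for Casq1.

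**Figure D2:**
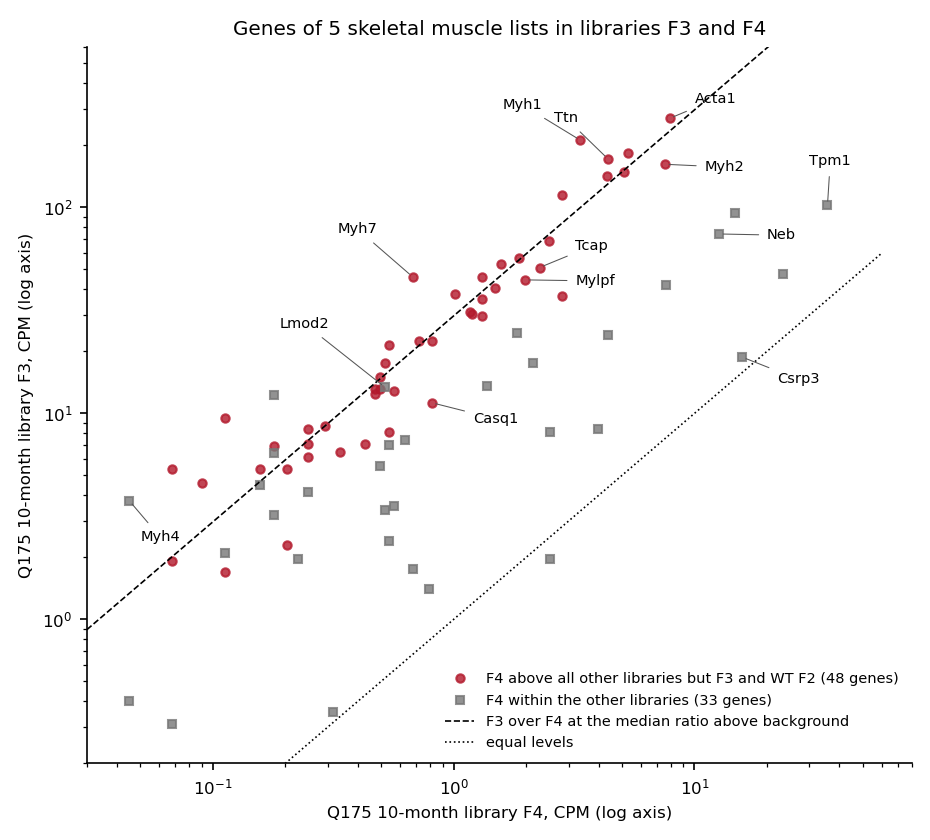
Level in the Q175 female F3 against that in the Q175 female F4, both in CPM on log axes, for the genes of the 5 skeletal muscle lists, with the 6 members and some others named. Circles are genes higher in F4 than in any other library except F3 and WT F2, squares are the rest, the dashed line marks the median ratio of 29.7 and the dotted line equal levels. Tpm1 and Neb, which have a level in the other livers, lie nearer to the dotted line.

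Per length, the members of the thin filament and the Z-disc did not share a level. In F3 Acta1 stood at 207.5 FPKM, Mylpf at 63.9 FPKM and Tcap at 59.2 FPKM, while Lmod2 had 7.496 FPKM, Casq1 6.71 FPKM and Ttn 2.65 FPKM. In F4 the order began in the same way, with 6.07 FPKM of Acta1, 2.85 FPKM of Mylpf and 2.65 FPKM of Tcap, followed by Casq1 at 0.485 FPKM, Lmod2 at 0.291 FPKM and Ttn at 0.0712 FPKM.

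The wider muscle programme was present in the same libraries. The 5 lists, on fast fibres, slow fibres, the sarcomere, excitation-contraction coupling and muscle energy metabolism, held 81 genes, members included. F3 was above every one of the other 164 libraries for 76 of the 81 genes, F4 for 48 and the WT female F2 for 20. Their summed level was 2832 CPM in F3, 208.0 CPM in F4 and 130.5 CPM in WT F2, against 81.7 to 158.6 CPM in the other libraries. By this sum WT F2 lies within the range of the other livers. In the other libraries 34 of the 81 genes had a median of 0 CPM, and 9 had a median of at least 1 CPM. Those 9 included Tpm1 (24.5 CPM), Neb (17.1 CPM), Pfkm (16.5 CPM) and Csrp3 (16.2 CPM), which are a tropomyosin, nebulin, phosphofructokinase and a Z-disc protein.

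By their sum, fast fibre genes separated the 3 libraries from all others. Their 13 levels summed to 948 CPM in F3, 29.6 CPM in F4 and 3.19 CPM in WT F2, against 0.245 to 1.53 CPM in the other 164 libraries. Taken singly, 13 of the 13 fast genes were above all of the other libraries in F3, 11 in F4 and 6 in WT F2. In F3 the highest per length beside the member Mylpf were the fast troponins Tnnt3 (154.8 FPKM), Tnnc2 (108.3 FPKM) and Tnni2 (85.1 FPKM), the calcium pump Atp2a1 (58.2 FPKM) and the light chain Myl1 (43.9 FPKM). Slow fibre genes reached 131.4 CPM in F3, 20.6 CPM in F4 and 31.05 CPM in WT F2, against 8.80 to 34.9 CPM, so only F3 stood apart by that sum. Its slow genes were led by Myl2 (29.1 FPKM) and Csrp3 (22.5 FPKM), followed by Tnnt1 (15.1 FPKM), Tnnc1 (11.4 FPKM), Myl3 (9.82 FPKM) and Myh7 (8.26 FPKM). Csrp3 had 18.7 CPM in F3, inside the 7.20 to 33.4 CPM of the other libraries. In those its median was 16.2 CPM, and that of the slow sum was 17.4 CPM. Gene by gene, F3 was above all of the other libraries for 8 of the 10 slow genes, F4 for 5 and WT F2 for 2.

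The sarcomere list of 28 genes summed to 1126 CPM in F3, 100.1 CPM in F4 and 71.1 CPM in WT F2, against 41.2 to 110.6 CPM in the others. Genes of excitation-contraction coupling summed to 144.0 CPM in F3, 12.9 CPM in F4 and 5.09 CPM in WT F2, against 3.13 to 8.40 CPM. Among them in F3 were Sln, sarcolipin (13.9 FPKM), Hrc, a calcium-binding protein of the reticulum (5.89 FPKM), and Srl, sarcalumenin (4.92 FPKM). The muscle energy genes summed to 493.4 CPM in F3, 45.7 CPM in F4 and 20.3 CPM in WT F2, against 17.5 to 31.7 CPM. F3 had 152.1 FPKM of Mb, the oxygen store myoglobin, 89.6 FPKM of the creatine kinase Ckm, 40.8 FPKM of the fatty acid carrier Fabp3 and 33.9 FPKM of the mitochondrial creatine kinase Ckmt2. F3 was thus above the range for each of these 5 lists, F4 for the fast, coupling and energy lists, and WT F2 for the fast list.

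**Figure D3:**
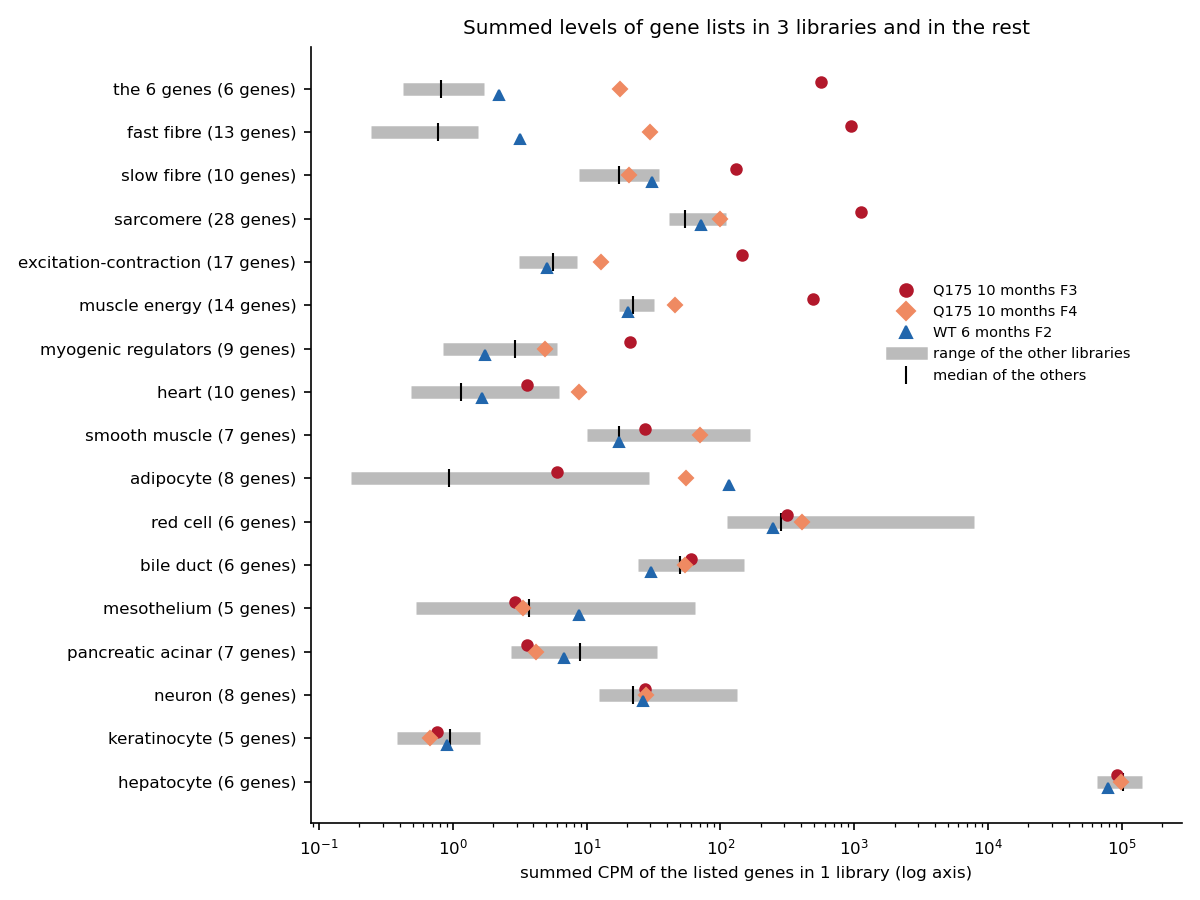
Summed level of each marker list in CPM (log axis), with the Q175 females F3 and F4 and the WT female F2 as coloured points. Grey bars are the range of the other 164 libraries and black ticks their median. F3 lies above the grey range for the fast (948 CPM), slow (131.4 CPM), sarcomere, coupling, energy and myogenic lists, and F4 and WT F2 lie above it for the adipocyte list (55.6 and 116.4 CPM).

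The myosin heavy chains, which set the type of a fibre, differed in proportion between the libraries. Of the FPKM of Myh1, Myh2, Myh4 and Myh7 together, the fast type IIX chain Myh1 made up 50.3% in F3 and 31.4% in F4, and the type IIA chain Myh2 made up 38.2% in F3 and 62.7% in F4. The slow chain Myh7 made up 10.6% and the type IIB chain Myh4 0.895% in F3, with 5.47% and 0.392% in F4. Counting only Myh1 and Myh2, Myh1 took 56.7% of the counts in F3 (9516 of Myh1 and 7269 of Myh2; 95% Wilson interval 55.9 to 57.4%), 30.8% in F4 (149 and 335; 26.8 to 35.0%) and 35.7% in WT F2 (10 and 18; 20.7 to 54.2%). The difference between F3 and F4 exceeds the counting error, and it is a difference between 2 livers. Reads shared by these similar chains could be split between them by the authors' counting.

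**Figure D4:**
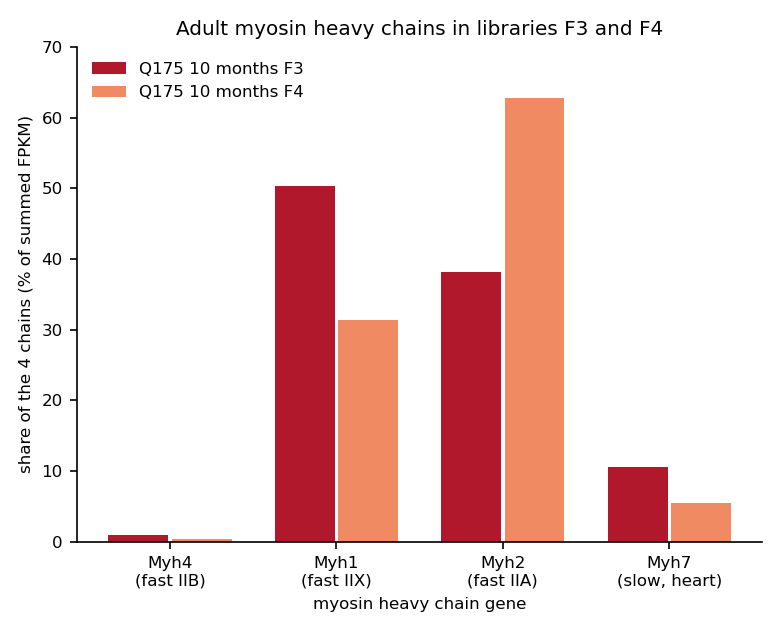
Share of the 4 myosin heavy chains in percent of their summed FPKM in the Q175 females F3 and F4. Myh1 leads in F3 with 50.3% and Myh2 leads in F4 with 62.7%.

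Regulators of muscle cells were highest in F3, which was above every other library for 8 of the 9 genes on that list. Myod1, the transcription factor that starts the muscle programme, had 10 counts (0.223 CPM) there and no count in any other library. Myf6, a related factor of mature fibres, had 0.512 CPM in F3 and 0.0676 CPM in F4, and 0 in the other 165 libraries. The growth inhibitor Mstn (1.31 CPM) and the transcription factor Mef2c (16.8 CPM) were also higher in F3 than in any other library. In F4 Mstn had 0.0225 CPM and Mef2c 4.71 CPM.

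Markers of other tissues were set beside these levels. Of the heart genes, Nppa was at 0 in F3 and F4, Nppb was at 0 in F3 and had 1 count in F4, and Myh6 had 2 counts in F3 (0.0445 CPM). Myh6 had 1.31 CPM in F4, above the highest other library (0.554 CPM), and the 10 heart genes summed to 3.58 CPM in F3, 8.76 CPM in F4 and 1.65 CPM in WT F2, against 0.490 to 6.24 CPM. Actc1 had 1.18 CPM in F3 and 0.563 CPM in F4 (at most 0.175 CPM in the others). Myl4 had 1.09 and 1.37 CPM (at most 1.08 CPM), and Tnni3 had 0.450 CPM in F4 (at most 0.326 CPM). Above all of the other libraries were 2 of the 10 heart genes in F3, 4 in F4 and 1 in WT F2. Tnnt2, the cardiac troponin T, had 0.868 CPM in F3 and 4.28 CPM in F4, under the 5.08 CPM of a Q92 female. Smooth muscle genes summed to 27.3, 69.8 and 17.3 CPM in F3, F4 and WT F2, inside the range of 10.1 to 164.9 CPM in the other libraries. Their median there was 17.5 CPM, far under F4, and the upper end was the 10-month-old Q111 male M3. Myh11, the smooth muscle myosin, had 4.87 CPM in F3 and 20.7 CPM in F4, with a median of 2.84 CPM and a highest of 50.5 CPM in the others.

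Fat cell genes were high in the libraries with the lower muscle levels. The 8 adipocyte genes summed to 5.96 CPM in F3, 55.6 CPM in F4 and 116.4 CPM in WT F2, against 0.172 to 29.2 CPM in the other libraries. Adipoq, the hormone adiponectin, had 0.712 CPM in F3, 9.05 CPM in F4 and 19.1 CPM in WT F2, with at most 3.55 CPM elsewhere, and Cfd, the fat cell protease adipsin, had 2.49, 31.9 and 68.8 CPM in the same libraries. Red cell, bile duct, mesothelium, pancreas, neuron and keratinocyte lists lay within the range of the other 164 libraries in all 3, as did the hepatocyte genes at 92563 CPM in F3, 97735 CPM in F4 and 79231 CPM in WT F2. The part of the heart, smooth muscle and fat cell genes in the levels of the 6 members was not tested.

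The genes whose pattern over all libraries was most like that of the 6 members were muscle genes too. Likeness was the Pearson correlation of log2(CPM + 0.1) with the mean of the members, over 16841 candidate genes, and it was 0.969 for Ckmt2, 0.966 for the actin-binding Xirp2, 0.964 for myotilin (Myot), 0.961 for Sln and 0.961 for Myh1. The 20 highest reached down to 0.928 for Actn2, and 16 of them were in the fixed muscle lists. Those outside the lists included 2310002L09Rik, 3425401B19Rik and Smtnl1. Without F3 and F4 the correlations were -0.077 to 0.399 (n = 165), and Sln and 2310002L09Rik had no count left. The points share their library size, and the correlations therefore describe mainly 2 livers. Among the members themselves the 15 pairwise correlations were 0.288 to 0.884 with all libraries and -0.263 to 0.174 without the 3 libraries of highest Acta1 (n = 164).

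Over the 21 groups the members had low levels outside these libraries. Acta1 had a median of 0 CPM in 19 of 21 groups, and its mean of 34.8 ± 95.2 CPM (SD, n = 8) in 10-month-old Q175 livers was followed by 0.125 CPM in 6-month-old WT livers. Without F3 and F4 Acta1 was 0 in all 6 Q175 livers of 10 months. Group medians of Ttn ran from 0.0584 CPM (Q80 at 2 months) to 0.146 CPM (Q175 at 10 months), with Q80 at 10 months next at 0.140 CPM. Those of Tcap ran from 0 CPM, in 4 groups, to 0.0303 CPM (Q111 at 10 months). For these 3 genes the group with the highest median overlapped the group with the lowest, so no neighbours in the order stood apart.

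Mylpf was the member with a steady level in liver. It had at least 10 counts in 158 libraries, and its group medians ran from 0.341 CPM (Q140 at 6 months) to 0.510 CPM (Q80 at 2 months), with a lowest library of 0.283 CPM in that Q80 group and a highest of 0.495 CPM in that Q140 group. Casq1 was counted in every library, with at least 10 counts in 49, and its medians ran from 0.114 CPM (Q111 at 2 months) to 0.253 CPM (Q111 at 10 months). Lmod2 had at least 10 counts in 15 libraries, and its medians ran from 0.0121 CPM (WT at 2 months) to 0.107 CPM (Q92 at 6 months). In each of these 3 genes the group with the highest median overlapped the group with the lowest, library by library. The highest library for Lmod2 was a female in only 2 of 21 groups.

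Single members stood out in other libraries too. Ttn had 0.722 CPM (26 counts) in the 10-month-old Q80 female F4 where Acta1 had 1 count. Tcap had 0.381 CPM (16 counts) in the 10-month-old Q111 male M3, where Acta1 had none. That Q111 male also had the highest sums of the other 164 libraries for the sarcomere (110.6 CPM), smooth muscle, adipocyte, bile duct, mesothelium and pancreas lists, and their part in its Tcap level was not tested.

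Before Q175 and Q20 livers of 10 months were compared by model, 5 of the 6 members passed the filter on low counts, Acta1 not among them, and they passed with F3 and F4 in the data. The log2 fold changes were 7.29 ± 1.41 (SE) for Tcap, 6.71 ± 1.17 for Ttn, 3.57 ± 0.64 for Mylpf, 3.55 ± 0.98 for Lmod2 and 3.32 ± 0.59 for Casq1. In this contrast 4 of 5 members were called at an adjusted p under 0.05, all but Lmod2, where 0.931% of all genes tested were called. As the members were chosen on this contrast, nothing is read from that count. Without F3 the values were 2.34 for Ttn, 0.76 for Mylpf and 1.21 for Casq1, and no member was called.

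Without F3 and F4 the 4 members that passed the filter gave 0.86 ± 0.33 for Casq1 (adjusted p = 0.284), 0.28 ± 0.24 for Mylpf, 0.06 ± 0.51 for Ttn and -1.17 ± 0.72 for Lmod2. None was called by edgeR, where 0.308% of all genes were, and 1 of the 4, Casq1, had an unadjusted p under 0.05. The mean of Casq1 was 0.230 ± 0.157 CPM in the 6 Q175 livers and 0.135 ± 0.086 CPM in the 8 Q20 livers (SD). The other alleles, which share these Q20 livers, gave Casq1 0.81 ± 0.31 in Q140, 0.94 ± 0.31 in Q111, 0.74 ± 0.31 in Q92 and 0.49 ± 0.32 in Q80 in the same fit, and none was called. Unadjusted p under 0.05 were those of Casq1 in Q140 (0.0111), Q111 (0.00393) and Q92 (0.0218) and that of Lmod2 in Q140 (0.0438), from edgeR's quasi-likelihood test. Background shares in that fit were 0% for Q140, 0.974% for Q111, 3.72% for Q92, 0.00628% for Q80 and 0.00628% for Q20 against WT. With all libraries no member was called for these alleles or for Q20 against WT at 10 months, where 0% (Q140), 0.962% (Q111), 3.72% (Q92), 0.00637% (Q80) and 0.00637% (Q20 against WT) of all genes were. The slope of the level on repeat length at 10 months called 4 of 5 members with all libraries, where 0.25% of genes were called, and 0 of 4 without F3 and F4, where 0.0883% were and 2, Casq1 and Lmod2, had an unadjusted p under 0.05. That slope rests on the same 2 Q175 livers, and nothing is read from its first count.

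At 2 and 6 months, ages that did not choose the members, the genotype comparisons called none of the members. Mylpf, Casq1 and Lmod2 passed the filter, and Acta1, Ttn and Tcap did not. At 2 months the 7 comparisons (5 alleles against Q20, Q20 against WT, and the slope) gave 0 calls in 21 tests by edgeR, 0 by DESeq2 and 0 by limma, and 0 had an unadjusted p under 0.05. Of all genes, 0.258% were called for Q175, 0% for Q140, 0% for Q111, 0% for Q92, 0.0991% for Q80, 0% for Q20 against WT and 0.266% for the slope. At 6 months the same 7 comparisons again gave 0 calls in 21 tests by edgeR, 0 by DESeq2 and 0 by limma, and 0 had an unadjusted p under 0.05. Here 10.2% of all genes were called for Q175, 4.91% for Q140, 0.678% for Q111, 16.6% for Q92, 8.24% for Q80, 31.3% for Q20 against WT and 5.67% for the slope. For Q175 against Q20 the log2 fold change of Casq1 at 2 months was 0.45 ± 0.32 (adjusted p = 0.543), and at 6 months it was 0.17 ± 0.30 (adjusted p = 0.773). Those of Mylpf were 0.00 ± 0.15 and 0.26 ± 0.17 (adjusted p = 0.340 at 6 months), and those of Lmod2 were -0.05 ± 0.72 and 0.38 ± 0.56.

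The 75 genes of the muscle lists that are not members gave a like picture. Between Q175 and Q20 at 10 months 13 of the 34 tested were higher with all libraries, and 0 of 29 without F3 and F4. At 2 months 0 of 25 changed. At 6 months 2 of 26 rose in Q175, where 10.2% of all genes were called. They were Pfkm, the muscle form of phosphofructokinase that liver expresses too (0.34 ± 0.07, adjusted p = 0.00310), and Cox7a1, a subunit of cytochrome oxidase (0.89 ± 0.19, adjusted p = 0.00363). Between Q20 and WT at 6 months 3 of 26 rose in Q20, where 31.3% of all genes were called, among them Myom1, a protein of the M-band (0.60 ± 0.23), and Pygm, the glycogen phosphorylase of muscle (0.48 ± 0.16). Both counts are read against those shares and do not set the lists apart. The 48 knock-in libraries of 6 months carry label numbers from 450 to 847, and the 8 WT libraries of 6 months numbers from 300259 to 300266, like the libraries of 2 and 10 months. At 6 months the difference between Q20 and WT and that between the number series therefore cannot be told apart.

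Female livers held less Lmod2 transcript than male livers did. At 2 months Lmod2 ranged from 0 to 0.117 CPM in 27 females (median 0.0258 CPM) and from 0 to 0.917 CPM in 29 males (median 0.0970 CPM). At 6 months it ranged from 0 to 0.163 CPM in 28 females (median 0.0343 CPM) and from 0 to 0.675 CPM in 28 males (median 0.0742 CPM). At 10 months, without F3 and F4, it ranged from 0 to 0.142 CPM in 26 females (median 0.04997 CPM) and from 0 to 0.599 CPM in 27 males (median 0.0714 CPM). The ranges overlapped at the low end, and the libraries with 10 counts or more of Lmod2 were 0 of 81 females and 13 of 84 males once F3 and F4 were left out. The median library held 1 count of Lmod2 in females and 3 in males, at or under the 3-count limit.

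The means of Lmod2 at 2 months were 0.0257 ± 0.0306 CPM in females and 0.135 ± 0.172 CPM in males (SD, n = 27 and 29), so that the log2 fold change was -2.26 ± 0.40 (SE) with an adjusted p of 3.94e-06. At 6 months they were 0.0459 ± 0.0393 CPM in females and 0.140 ± 0.169 CPM in males (n = 28 each), with -1.43 ± 0.33 (adjusted p = 2.21e-04). At both ages 1 of the 3 members tested was called, where 57.2% of all genes at 2 months and 60.4% at 6 months were called. Lower in females, as Lmod2 was, were 27.6% of all genes at 2 months and 29.4% at 6 months, so the count itself does not set the members apart. The female mean was the lower one in 7 of 7 genotypes at 2 months, in 6 of 7 at 6 months and in 6 of 7 at 10 months. At 10 months without F3 and F4 the fold change was -1.35 ± 0.39 (adjusted p = 0.00289). With all libraries it was -0.27 ± 0.61, and the adjusted p ran from 0.00289 to 0.946 over the settings tried. F3 and F4 are the 2 female libraries with the highest Lmod2.

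Casq1 and Mylpf were higher in females at 10 months. Casq1 averaged 0.246 ± 0.095 CPM in 26 females and 0.166 ± 0.081 CPM in 27 males without F3 and F4, which is 0.62 ± 0.17 on the log2 scale (SE, adjusted p = 0.00162, at most 0.00531 over the settings tried). Mylpf averaged 0.481 ± 0.130 CPM in females and 0.369 ± 0.104 CPM in males, with 0.40 ± 0.12 (adjusted p = 0.00536, at most 0.0160). The female mean was the higher one in 7 of 7 genotypes for both genes. Ttn averaged 0.157 ± 0.137 CPM in females and 0.098 ± 0.054 CPM in males, with 0.60 ± 0.26 (adjusted p = 0.0495, from 0.00303 to 0.244 over the settings tried), and its female mean includes the Q80 female with 0.722 CPM. Without F3 and F4 all 4 members tested were called, 3 of them higher in females, where 54.8% of all genes were called, 28.4% higher and 26.4% lower. With all libraries 4 of 5 were called, where 56.6% of genes were, and that count rests on F3 and F4 as well.

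At the younger ages edgeR called neither gene, and limma called Casq1 at 2 months (adjusted p = 0.00438). Casq1 averaged 0.191 ± 0.086 CPM in females and 0.144 ± 0.061 CPM in males at 2 months (adjusted p = 0.0556, from 0.00438 to 0.0925 over the settings tried), and 0.221 ± 0.093 CPM in females and 0.193 ± 0.083 CPM in males at 6 months (adjusted p = 0.321). Mylpf averaged 0.406 ± 0.083 CPM in females and 0.468 ± 0.110 CPM in males at 2 months (adjusted p = 0.0853) and 0.419 ± 0.106 CPM in females and 0.424 ± 0.091 CPM in males at 6 months (adjusted p = 0.899). The difference between the sexes in Mylpf changed with age. From 2 to 10 months the log2 ratio of females over males rose by 0.59 ± 0.14 (SE, interaction term without F3 and F4, adjusted p = 0.00694), where 2.28% of all genes passed. The same term was 0.19 ± 0.25 for Casq1 (adjusted p = 0.754), 0.89 ± 0.57 for Lmod2 (adjusted p = 0.446) and -0.06 ± 0.34 for Ttn. From 2 to 6 months it called none of the 4, where 0.831% of genes passed, with 0.19 ± 0.14 for Mylpf (adjusted p = 0.579).

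**Figure D5:**
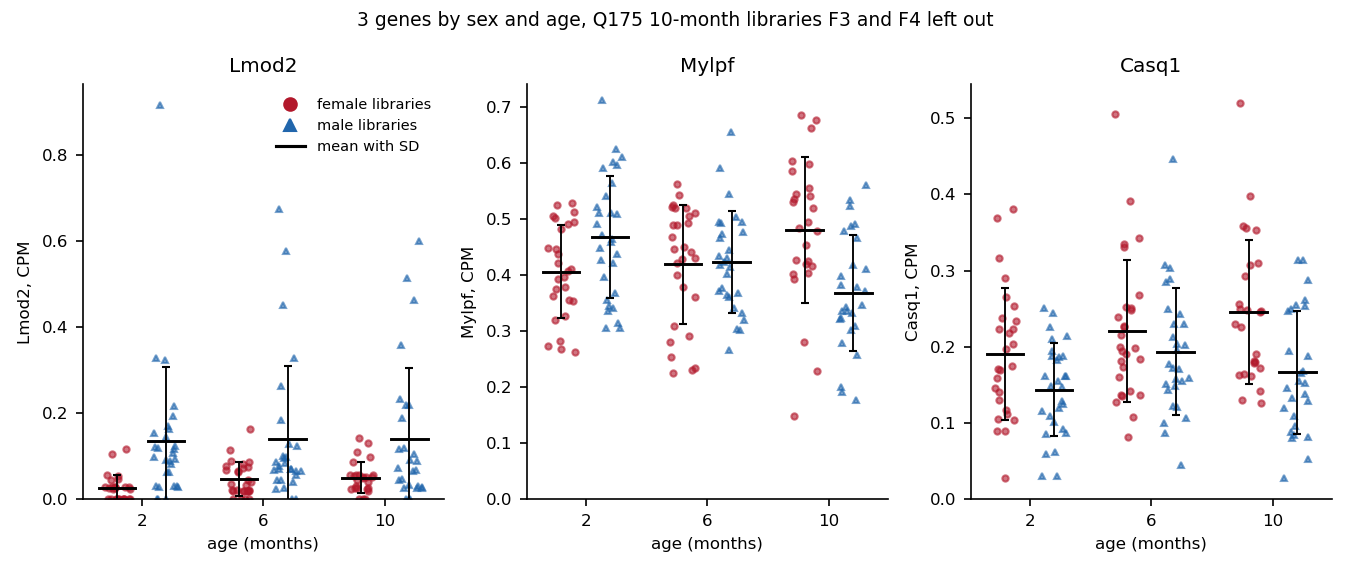
Level in CPM of Lmod2, Mylpf and Casq1 in females (left of each pair) and males by age, without the Q175 females F3 and F4; points are libraries and bars are the mean with the SD. Lmod2 is lower in females at every age, with means of 0.0257 CPM in females and 0.135 CPM in males at 2 months, and Mylpf is higher in females at 10 months (0.481 CPM in females and 0.369 CPM in males).

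Other genes of the muscle lists differed between the sexes in both directions, with more of them higher in females than lower. Of the 75 genes that are not members, 11 were higher and 3 lower in females at 2 months (25 tested), 12 higher and 4 lower at 6 months (26 tested), and 12 higher and 2 lower at 10 months without F3 and F4 (29 tested). Over all genes 57.2%, 60.4% and 54.8% were called in the same fits, so the shares called in either direction do not set the lists apart. Lower in females were 27.6%, 29.4% and 26.4% of all genes, a larger share than in the lists. The median log2 fold change of the list genes tested was 0.1952, 0.2515 and 0.44, against 0.0114, 0.00772 and 0.0184 over all genes. This tilt was not tested. Neb, nebulin of the thin filament, was lower in females by log2 fold changes of -0.69 ± 0.09, -0.63 ± 0.10 and -0.54 ± 0.10 at 2, 6 and 10 months. Xirp1, an actin-binding protein named after its values were seen, had -1.81 ± 0.19, -1.12 ± 0.24 and -1.28 ± 0.28. Tpm2, a tropomyosin, was higher in females by 0.79 ± 0.14, 0.99 ± 0.16 and 0.77 ± 0.18, and Srl by 0.48 ± 0.11, 0.54 ± 0.11 and 0.61 ± 0.12. The largest adjusted p of these 4 genes was 2.33e-04.

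With age Casq1 was the only member of the 4 tested that edgeR called between 6 and 2 months without F3 and F4. It rose by 0.31 ± 0.12 (log2, SE), with 0.207 ± 0.089 CPM in 56 libraries of 6 months and 0.166 ± 0.077 CPM in 56 libraries of 2 months (adjusted p = 0.0256). It was 1 call of 4 members tested, where 47.8% of all genes were called, and with all libraries it was 0.34 ± 0.19 (adjusted p = 0.141), so this call depends on leaving out F3 and F4, and the adjusted p ran from 0.0256 to 0.340 over the settings tried. At 6 months only WT shares the number series of the libraries of 2 months. Within that series, also without F3 and F4, Casq1 had 0.61 ± 0.27 (adjusted p = 0.173), and none of the 4 members was called by edgeR, with Casq1 alone at an unadjusted p under 0.05. With all libraries 1 of 6 members was called at 6 against 2 months, where 48.2% of genes were. It was Acta1 (3.58 ± 1.43), which had 43 counts in the WT female F2 and at most 0.0252 CPM in any male of 6 months. Acta1 passed the filter of this fit only with F3 and F4 in the data, and nothing is read from that call. Between 10 and 2 months 6 of 6 members were called with all libraries, where 24.4% of genes were, and nothing is read from that count because F3 and F4 are in it. Without them 0 of 4 were called by edgeR, where 22.8% of genes were, and 2, Casq1 and Ttn, had an unadjusted p under 0.05.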

How the data were processed

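Messenger RNA of liver was sequenced. Per the labels' protocols, RNA was extracted with the miRNeasy kit, enriched for polyA RNA and run on Illumina HiSeq machines. Per the submitters' processing notes base calling used CASAVA 1.8.2, while no aligner, genome build, annotation or strand setting is given in the sources used here. Of the expected counts that the authors deposited, 14.1% were fractional, so all were rounded. The deposited FPKM values were used for levels between genes and, as log2(FPKM + 0.1), for limma. No columns were identical. The labels number the replicates and do not state that each is a separate animal, so p-values measure the spread between these samples, which may be technical.

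Counts were tested with edgeR 4.0.16 in R 4.3.3 (TMM, filterByExpr on genotype and sex, glmQLFit and its F test, Benjamini-Hochberg over all genes tested, threshold 0.05). Each age had 1 fit of its 7 genotypes with sex as a term, the slope per 100 repeats used the 6 knock-in lines, and ages were compared with genotype and sex in the model. Each SE was taken as the absolute fold change over the root of F. CPM levels use TMM over all libraries. Alternatives were DESeq2 1.42.0, limma 3.58.1, RLE, no filter, the replicate number as a block, 1 sex at a time, only the groups compared, and libraries left out. The term for sex by age, the set without the 3 libraries above 0.5 CPM of Acta1 and the fit within 1 series of library numbers were added after the data were seen. The members and lists were chosen with earlier results of these data known. Genes named beside the members are up to 6 per list with the highest FPKM in F3 and F4, genes near 0 in the lists of other tissues and of regulators, and the 20 most like the members with at least 10 counts in at least 2 libraries. Others are named after their values were seen, as are list genes called in a comparison. Symbols and positions came from GENCODE M21, in which 37607 of the 39179 IDs matched. The count tests were first run on simulated data with known changes. Figures were drawn with matplotlib 3.10.9. Some genes that the naming rules reach are not reported here.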

Additional observations from a re-analysis of the deposited data

Results flagged for a closer look

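Within each of 147 sets of a gene (or the sum of the 6) and a group, the highest and the lowest library were compared with the rest of the group by Dixon's gap, which chance exceeds in about 1 in 20 groups. In total 25 sets had such a library with 10 counts or more beside the gap, and 19 others rested on fewer counts and are not listed.

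The Q175 female F3 of 10 months stood apart for the summed level (562 CPM) and for Acta1 (270.2 CPM), Ttn (172 CPM), Tcap (51.0 CPM), Mylpf (44.4 CPM), Casq1 (11.3 CPM) and Lmod2 (13.4 CPM). The members were chosen for their level in that group, so these sets are a description and no test. The WT female F2 of 6 months stood apart for the sum (2.21 CPM), Acta1 (0.932 CPM) and Ttn (0.412 CPM). Ttn was also high in the Q80 female F4 of 10 months (0.722 CPM), the WT female F2 of 10 months (0.282 CPM) and the Q111 female F1 of 2 months (0.282 CPM). Tcap was high in the Q111 male M3 of 10 months (0.381 CPM), and Casq1 in the Q175 female F3 of 2 months (0.369 CPM).

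Lmod2 stood apart in males of 6 groups other than that of F3. These were the Q111 male M1 of 2 months (0.917 CPM), which also had the highest sum of its group (1.38 CPM), the Q175 male M4 of 2 months (0.324 CPM), the Q175 male M4 of 6 months (0.576 CPM), the Q20 male M4 of 6 months (0.327 CPM), the Q80 male M3 of 10 months (0.359 CPM) and the WT male M3 of 10 months (0.464 CPM). Mylpf was low in the Q92 female F3 of 2 months (0.262 CPM), the Q80 female F1 of 2 months (0.283 CPM) and the WT male M2 of 6 months (0.266 CPM).

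The difference between the sexes in Mylpf was larger at 10 than at 2 months by 0.59 on the log2 scale, by a test of that difference.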

How the results depend on the processing

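Of 29 counts of members called or of libraries, 20 kept their value within 1.5 times under every alternative tried, leaving out single libraries apart, and 27 of 269 alternatives moved a count. Part of that agreement was fixed in advance. At 2 and 6 months no library had Acta1 above 1 CPM, so leaving out such libraries repeated the same fit. At 2 months this held for 0.5 CPM as well. These repeats are among the 269 and among the fold change pairs below. For Q175 against Q20 at 10 months, 4 members were called, and 0 were with limma, with the replicate block, in females alone, in males alone, in a fit of only the 2 groups, without F3 and F4, or without the 3 libraries of highest Acta1. Leaving out 1 of 16 libraries gave 0 (without F3) to 5. For the slope at 10 months, 4 were called, against 1 with DESeq2, 0 with limma, 1 with the replicate block, 2 in females alone, 0 in males alone, 0 without either set of libraries, and 0 (without F3) to 4 with 1 library left out. At 2 and 6 months, leaving out 1 of 16 libraries gave 0 to 0 for both. For females against males, limma called 2 at 2 months (1 in the count above) and 2 at 10 months (4), and without a filter 2 were called at 6 months (1). Without a filter 1 was called for Q20 against WT at 6 months (0). At 6 against 2 months DESeq2, limma and a fit of 1 series of library numbers called 0 (1), and at 10 against 2 months limma called 1 and the sets without muscle libraries 0 (6). At 6 months the number of libraries with muscle RNA was 0 at 1 CPM of Acta1, and 1, the WT female F2, at 0.5 CPM, at 4 of 6 members with 10 counts, or at a sum above 2 CPM. Each fold change named was set beside its value under each alternative. In these pairs 306 kept their status, whether called or not called, 27 lost a call, 14 gained one and 0 reversed with a call on either side. A change of sign with no call on either side was counted as kept. For Lmod2 in Q175 against Q20 at 10 months the fold change ran from -1.74 to 3.97 over the settings. Without the Q80 male M5 of 2 months, whose label was in doubt in earlier work, Lmod2 had -2.25 at 2 months.

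Of Q175 and Q20 livers with the same replicate number, the deviations had a median correlation of 0.046, -0.021 and 0.132 at 2, 6 and 10 months, and 2, 1 and 6 of 8 pairs correlated best with their own number. The lowest pair had -0.132, -0.12 and -0.052, so not every pair was over 0.1 at any age and the numbers were not read as pairs, though at 10 months they went partly together. At that age the replicate block left 0 calls for Q175 against Q20 and 1 for the slope at 10 months. Depth limits what can be said of Acta1, Tcap and Lmod2, whose medians over all libraries lie under the 3-count limit. Limma's scale with a pseudocount of 0.1 FPKM understates their change and that of Ttn. In the libraries other than F3, F4 and WT F2 the median of Ttn was 0.0015 FPKM. That of Casq1 was 0.116 FPKM, near the pseudocount. No other calls were changed by the block.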

Other observations

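Some muscle genes that are not among the 6 were called between other alleles and Q20 once the Q175 females F3 and F4 were left out of the fit at 10 months. Each of these calls was lost when 1 more library was left out. The fold changes then were smaller and kept their direction, and a smaller share of all genes was called. In Q92 against Q20, Casq2, the calsequestrin of slow and heart muscle, rose by 3.90 ± 0.96 (log2, SE, adjusted p = 0.0166), Pdlim3, a Z-disc protein, by 1.94 ± 0.57 (adjusted p = 0.0435) and Jph2, a junctophilin, by 1.97 ± 0.59 (adjusted p = 0.0471), where 3.72% of all genes were called. In Q111 against Q20 only Pdlim3 of the 29 list genes tested was called (2.15 ± 0.57, adjusted p = 0.0479), where 0.974% of all genes were called. The Q92 female F4 had the highest Casq2 (0.935 CPM) and Pdlim3 (3.29 CPM) of the libraries other than F3, F4 and the WT female F2, and also the highest heart sum (6.24 CPM), Tnnt2 (5.08 CPM) and the smooth muscle gene Tagln (35.8 CPM). Without it, an alternative added after the data were seen, Casq2 had 2.99 ± 0.97 (adjusted p = 0.0924), Pdlim3 1.199 ± 0.541 (adjusted p = 0.256) and Jph2 1.22 ± 0.57 (adjusted p = 0.279) by edgeR in Q92, where 1.49% of all genes were called. The Q111 male M3 had the highest Jph2 (1.36 CPM) and the highest smooth muscle sum (164.9 CPM). Without it Pdlim3 had 1.22 ± 0.52 (adjusted p = 0.464) in Q111, where 0 of 15840 genes were called by edgeR. The part of the heart and smooth muscle genes in these levels was not tested. With all libraries the same folds were 3.91 for Casq2 (adjusted p = 0.0909), 1.89 for Pdlim3 (adjusted p = 0.0791) and 1.94 for Jph2 (adjusted p = 0.138) in Q92, and 2.26 for Pdlim3 in Q111 (adjusted p = 0.0657). These genes were named after their values were seen, and both comparisons share the Q20 livers.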
